A study of Oryctolagus cuniculus with 34 samples.

Results

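This comparison asks what a matrix gel added to surgical repair of an injured rabbit supraspinatus, the rotator cuff muscle that lies above the shoulder blade, at the earlier of the study's 2 sampling times. The libraries were chosen by their titles: 5 bulk RNA libraries of muscle that had the repair together with the gel, and 5 of muscle that had the repair only, both labelled short term, which makes 10 of the 34 libraries of the series. The gel was prepared from tissue-derived extracellular matrix. Both groups are injured and repaired muscle and differ, as far as the labels say, only in the gel. A further 4 short-term libraries with the injury only entered the fit to help estimate the spread between libraries. The long-term libraries, 10 of gel and repair and 10 of uninjured muscle, entered only the fits of all 34 libraries. Those fits gave the comparison between terms and an alternative set of calls between gel and repair in the short term. The labels give no animal age, no number of weeks and nothing on whether each library is a separate animal. The p-values therefore set a difference against the spread between the libraries of a fit, which may in part be technical.

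Muscle fibres draw their energy from glycolysis or from mitochondria, in which the respiratory complexes, the citric acid cycle and fatty acid oxidation feed ATP synthase. Slow fibres carry more mitochondria than fast ones and use their own set of contractile proteins. After injury, fibro-adipogenic progenitors, the connective tissue stem cells of muscle, can turn into matrix-producing fibroblasts or into fat cells. Transforming growth factor beta drives the collagen response. In bulk tissue, fewer cells of a type and less RNA per cell cannot be told apart.

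Read totals ranged from 27589751 to 31805944 counts in the gel libraries and from 29643811 to 32043760 counts in the repair libraries, a difference of means with an exact permutation p of 0.0952 (2-sided, 0.190 adjusted over 4 library measures). The tissue label fitted the most abundant genes: skeletal actin ACTA1 led in 5 of 5 gel libraries, and ACTA1 or the fast myosin MYH1 led in 4 of the repair libraries. The exception was repair 5, where the collagen gene COL1A1 led with 3.97% of counts. The gel libraries resembled each other more than the repair libraries did, with median correlations of log2 values to their own group of 0.951 ± 0.00646 and 0.929 ± 0.0185 (SD, n = 5 each, exact permutation p = 0.0238, adjusted 0.0952). Values of a group share pairs of libraries and are not independent, and repair 4 enters each repair value, so this p is only a guide. The median SD of a gene on the log2 scale was 0.361 in the gel group and 0.486 in the repair group, and 0.384 in the repair group without repair 4.

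Repair 4 stood apart from its group before any gene was tested. Only 13978 genes had a count in it, against 14962 to 15204 in the other repair libraries and 14741 to 15198 in the gel libraries. Its 10 most abundant genes took 31.7% of counts, against 12.9% to 21.1% in the other repair libraries. Its median correlation was 0.900 with the repair libraries, 0.926 with the gel libraries and 0.969 with the injury-only libraries. Injury-only library 3 also stood apart from its own group (median correlation 0.915, against 0.970 to 0.971 for the other 3). Repair 5 was the next most distant repair library, at a root mean square log2 distance from the rest of its group of 1.06, against 1.33 for repair 4 and 0.539 to 0.802 for the other 3. The main results are therefore given with all libraries and without repair 4, and values that rest on repair 5 are named.

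**Figure D1:**
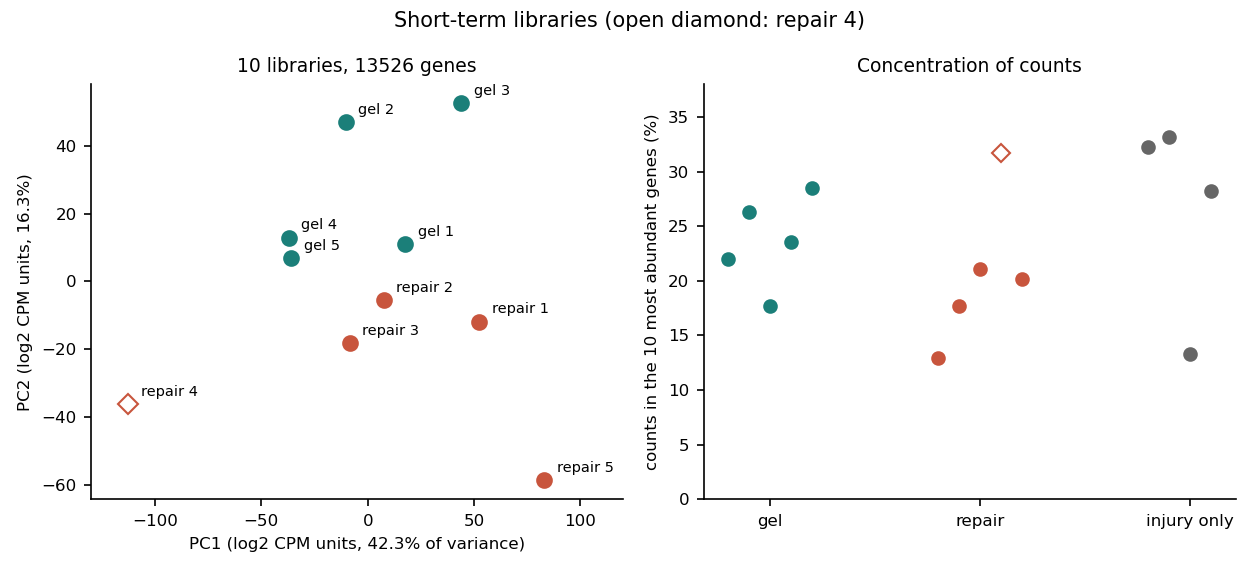
Left, the 5 gel and 5 repair libraries on the first 2 principal components of log2 CPM (a gene's count scaled to the total of its library), which hold 42.3% and 16.3% of the variance. Right, the percent of counts in each short-term library's 10 most abundant genes, for gel, repair and injury-only muscle. Repair 4, the open diamond, lies at the far left of the first component, and its 31.7% is close to 3 of the 4 injury-only libraries.

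Across the genome, 13526 genes were tested with edgeR's quasi-likelihood test, and 0 genes (0.0%) passed a Benjamini-Hochberg adjusted p of 0.05. At an unadjusted p under 0.05 there were 1404 genes (10.4% of those tested), 764 higher (5.65%) and 640 lower (4.73%) in gel than in repair muscle. Fitted log2 differences, gel minus repair, were above 0 for 45.7% of genes. On the same libraries DESeq2 called 127 genes (0.939%), 93 higher and 34 lower, and limma with voom and quality weights for samples called 3. Values in the gel libraries lay wholly above those in the repair libraries for 152 genes (1.12%) and wholly below them for 119 (0.88%).

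Without repair 4 the counts were larger on both sides. edgeR again called 0 of 13524 genes (0.0%), with a smallest adjusted p of 0.0922, but 2233 genes (16.5%) had an unadjusted p under 0.05, 1094 higher (8.09%) and 1139 lower (8.42%) with the gel. DESeq2 then called 559 genes (4.13%), 337 higher and 222 lower, and these included 116 of the 127 genes it called with all libraries, or 91.3% of that set and 20.8% of the larger one. The groups were wholly apart for 411 genes with the gel above (3.04%) and 404 with the gel below (2.99%). Leaving out the other deviating library, injury 3, as well brought the edgeR count to 13 (0.0952%). With repair 4 kept, leaving out any other gel or repair library gave 1017 to 1333 genes at an unadjusted p under 0.05, below 1404. The number was 1033 without repair 1 and 1068 without repair 5. Leaving out a further gel or repair library besides repair 4 gave 1388 (repair 5) to 2640 (repair 3), and 1545 for repair 1. A fit of all 34 libraries estimates the spread from 6 groups, with long-term and uninjured muscle among them. It called 93 genes (0.719%), 51 higher and 42 lower, and in 52 of these 93 the gel and repair values overlapped.

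**Figure D2:**
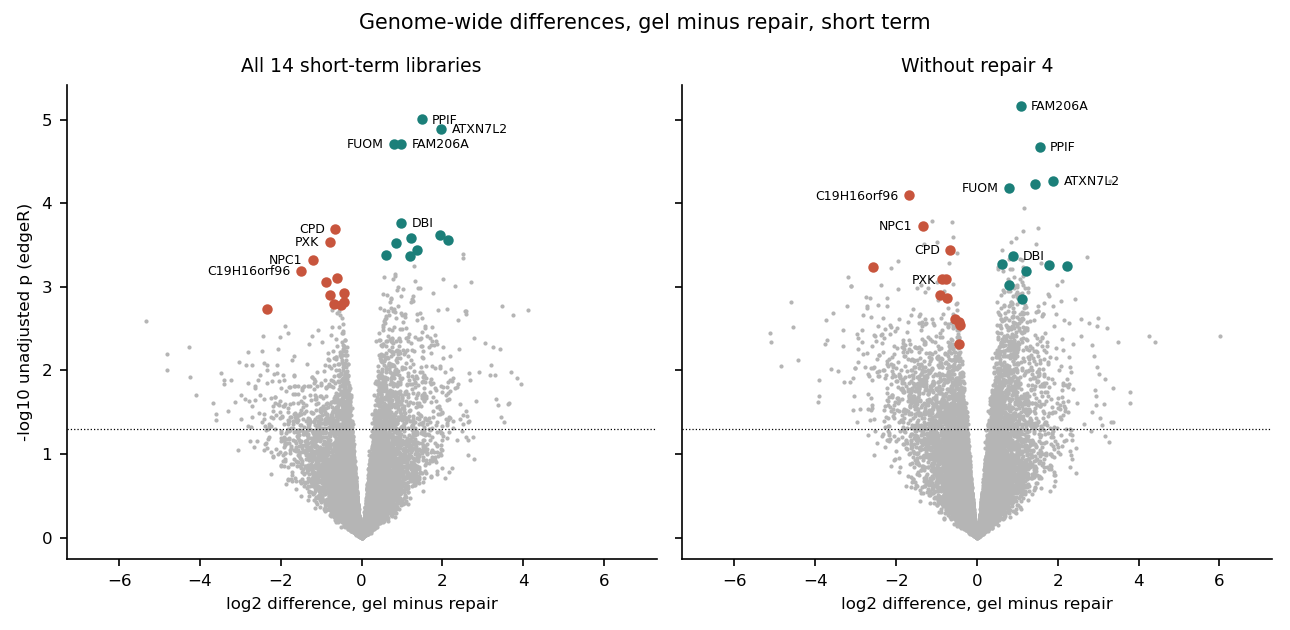
Log2 difference, gel minus repair (horizontal axis), against -log10 of the unadjusted edgeR p (vertical axis) for every gene tested, with all 14 short-term libraries at left and without repair 4 at right. Coloured points are the 12 genes with the smallest p on each side in the left panel, and the dotted line marks p = 0.05. PPIF, ATXN7L2, FUOM and FAM206A stand highest at left, and the right panel holds more genes above the line, 2233 against 1404.

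On the higher side the 12 genes with the smallest p had varied roles. PPIF encodes cyclophilin D, which opens the permeability transition pore of the inner mitochondrial membrane. It had 36.1, 50.3, 61.8, 47.5 and 34.2 CPM in gel libraries 1 to 5, against 14.9, 23.7, 13.97, 19.1 and 10.4 CPM in repair libraries 1 to 5. The lowest gel library was above the highest repair library, and the log2 difference was 1.49 (SE 0.22) with an edgeR adjusted p of 0.0654.

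The ataxin-7 family member ATXN7L2 had 35.7, 61.98, 67.3, 40.02 and 28.7 CPM in gel libraries 1 to 5, against 10.1, 20.8, 9.59, 8.78 and 10.1 CPM in repair libraries 1 to 5. Repair 2 was the highest of its group and still below every gel library. The difference was 1.98 (SE 0.30), and 2.27 without repair 2. FUOM, a fucose mutarotase, had 28.9, 38.3, 44.5, 42.9 and 38.2 CPM in gel libraries 1 to 5, against 19.7, 24.5, 23.6, 21.4 and 20.5 CPM in repair libraries 1 to 5, a difference of 0.81 (SE 0.13) with no overlap. FAM206A, for which no role is given here, had 17.8, 24.6, 21.5, 20.99 and 15.98 CPM in gel libraries 1 to 5, against 9.21, 10.99, 8.89, 13.1 and 9.18 CPM in repair libraries 1 to 5. Its groups were apart as well, with a difference of 0.97 (SE 0.15) that became 1.08 (SE 0.15) without repair 4, where its adjusted p of 0.0922 was the smallest of all genes.

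DBI, the acyl-CoA binding protein, had 107, 165, 176, 148 and 126 CPM in gel libraries 1 to 5, against 55.5, 80.5, 94.5, 52.3 and 83.6 CPM in repair libraries 1 to 5, so that gel 1, the lowest of its group, exceeded repair 3, the highest of the other. ETFB, a subunit of the electron transfer flavoprotein that passes electrons from fatty acid oxidation to the respiratory chain, had 103, 123, 147, 232 and 207 CPM in gel libraries 1 to 5, against 48.3, 68.7, 67.3, 103 and 57.9 CPM in repair libraries 1 to 5. Repair 4 nearly reached gel 1, and the other 4 repair libraries were lower. The log2 difference was 1.23 (SE 0.25), and 1.42 (SE 0.24) without repair 4. Its partner ETFA had 133, 209, 183, 204 and 171 CPM in gel libraries 1 to 5, against 73.3, 116, 104, 148 and 77.9 CPM in repair libraries 1 to 5, and here repair 4 lay inside the gel range, with a difference of 0.79 (SE 0.21) and of 0.96 (SE 0.19) without it. MRPL14, a protein of the mitochondrial ribosome, had 49.2, 48.4, 58.6, 54.1 and 55.98 CPM in gel libraries 1 to 5, against 31.7, 37.4, 37.98, 38.6 and 31.04 CPM in repair libraries 1 to 5. Of the 12 genes with the smallest p on the higher side, 11 had no overlap between groups, the exception being COL7A1, the collagen of anchoring fibrils. The others were the channel genes PKD2L2 and KCNH2, CCDC28B, and the leukocyte myosin MYO1G, and log2 differences over the 12 ranged from 0.59 to 2.14 with adjusted p-values of 0.0654 to 0.377. Over all genes 1.12% had the gel wholly above. Smallness of p chose these 12 genes, so their separation is a description.

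On the lower side the 12 genes with the smallest p likewise had varied roles. CPD, a carboxypeptidase of the Golgi and secretory path, had 56.3, 44.2, 42.5, 44.7 and 53.5 CPM in gel libraries 1 to 5, against 82.5, 61.7, 86.6, 73.5 and 74.1 CPM in repair libraries 1 to 5, with no overlap, a difference of -0.65 (SE 0.13) and an edgeR adjusted p of 0.369. XBP1, the transcription factor that the unfolded protein response activates by splicing, had 114, 90.5, 106, 94.3 and 99.7 CPM in gel libraries 1 to 5, against 176, 133, 135, 138 and 227 CPM in repair libraries 1 to 5. The gel libraries lay close together and below all repair libraries, with repair 5 the highest, and the difference was -0.68 (SE 0.17), or -0.54 without repair 5. NPC1, which exports cholesterol from lysosomes, had 43.3, 19.9, 23.3, 26.4 and 28.3 CPM in gel libraries 1 to 5, against 69.2, 67.1, 79.5, 41.7 and 69.5 CPM in repair libraries 1 to 5. Only repair 4 fell into the gel range, below gel 1, and the difference was -1.21 (SE 0.27) with it and -1.33 (SE 0.26) without it.

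LRP6, a co-receptor of Wnt ligands, had 12.1, 13.8, 12.4, 12.4 and 10.1 CPM in gel libraries 1 to 5, against 32.7, 20.7, 16.3, 16.5 and 18.8 CPM in repair libraries 1 to 5, a difference of -0.79 (SE 0.20) with repair 1 the highest. TNKS, the poly-ADP-ribosylating enzyme tankyrase, differed by -0.44 (SE 0.11), PDS5B, which binds cohesin, by -0.51 (SE 0.13), and CYP7B1, which hydroxylates oxysterols, by -0.88 (SE 0.21). Each of these 3 had groups that did not overlap. The secreted protein CRISPLD2 had the largest difference among the 12, -2.34 (SE 0.61), and had 1.66, 0.934, 1.76, 2.85 and 3.68 CPM in gel libraries 1 to 5, against 19.8, 4.12, 3.47, 2.94 and 24.6 CPM in repair libraries 1 to 5. Repair 1 and repair 5 were far above the other 8 libraries, and without repair 5 the difference was -1.81. In 9 of these 12 genes the groups were apart, and edgeR adjusted p-values ran from 0.369 to 0.383. Over all genes 0.88% had the gel wholly below. Smallness of p chose these 12 as well, so their separation too is a description.

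A further 6 genes on each side were chosen by the smallest p without repair 4, so what follows of them is a description. SEL1L, an adaptor of the pathway that clears misfolded proteins from the endoplasmic reticulum, had 75.7, 68.5, 68.3, 70.4 and 67.01 CPM in gel libraries 1 to 5, against 117, 111, 100.03, 52.6 and 92.6 CPM in repair libraries 1 to 5. The other 4 repair libraries were above every gel library and repair 4 was below all of them, so the difference was -0.43 (SE 0.18) with repair 4 and -0.58 (SE 0.12) without it. GJA1, the gap junction protein connexin 43, had 22.5, 21.4, 24.4, 16.7 and 18.1 CPM in gel libraries 1 to 5, against 102, 27.2, 45.02, 7.70 and 146 CPM in repair libraries 1 to 5, with repair 4 again the lowest of 10 and repair 5 the highest. It differed by -1.66 (SE 0.57) and by -1.95 (SE 0.42) without repair 4. IFNGR2, a chain of the interferon gamma receptor, had the same order of libraries, with differences of -1.04 (SE 0.43) and, without repair 4, -1.31 (SE 0.27). So had SGSM2, and the other genes on this side were GLOD4 and the potassium channel KCNN3. On the higher side this choice brought ROGDI, YBX2, the metalloprotease ADAM8, TTYH2 and KIAA1257 beside ETFA.

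**Figure D3:**
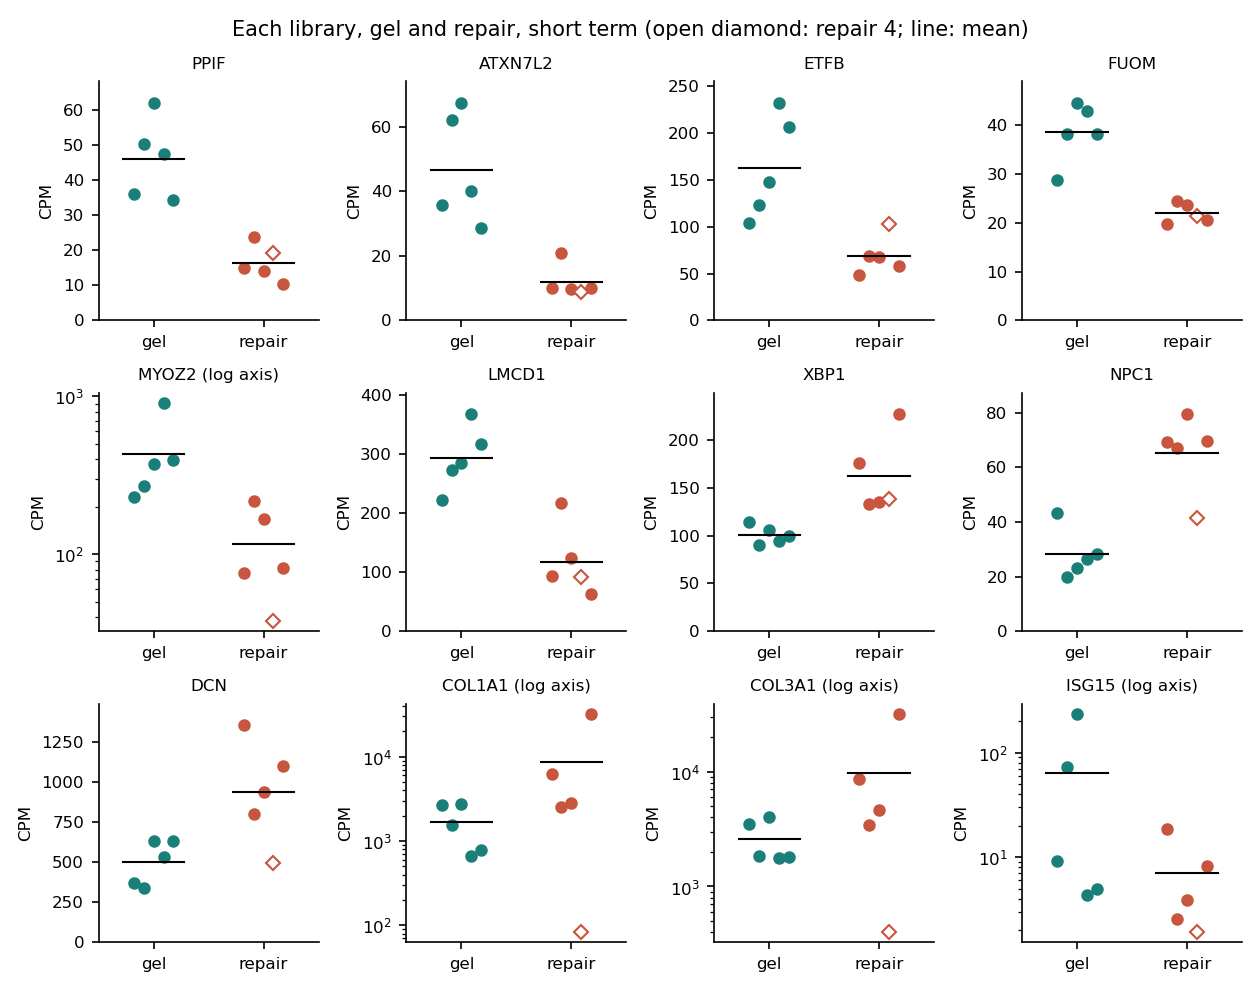
CPM of 12 named genes in each gel and repair library, short term, each point a library and each line a group mean. Axes marked as log axes are logarithmic and the others start at 0. PPIF, ATXN7L2, ETFB, FUOM, MYOZ2, LMCD1 and XBP1 do not overlap between groups; for NPC1, DCN, COL1A1 and COL3A1 repair 4, the open diamond, is the lowest repair library, and for ISG15 gel 2 and gel 3 stand above the rest.

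Genes of mitochondrial energy metabolism were higher with the gel across nearly every list examined. No member passed the adjusted threshold in edgeR with all 14 short-term libraries or without repair 4. The edgeR fit of all 34 libraries (0.719% of all genes called) called ATP5G3, MDH1, ETFA, ETFB, PPIF and TIMM44, all higher. Without repair 4 and injury 3 (0.0952% of all genes) edgeR called PPIF. Over 9 mitochondrial lists, 206 of 226 genes tested (91.2%) had a fitted difference above 0, against 45.7% of all genes, with a median log2 difference of 0.43 against -0.04 over all genes. At an unadjusted p under 0.05, 77 were higher (34.1%, against 5.65% of all genes) and 1 was lower. Without repair 4 these were 149 higher (65.9%, against 8.09%) and 1 lower, the median was 0.60, and the number of genes with every gel library above every repair library was 71 (31.4%, against 3.04%), where it was 13 (5.75%, against 1.12%) with all libraries. DESeq2's calls in these lists, all higher with the gel, depended on repair 4. With all libraries, where it called 0.939% of all genes, it called 0 of 29 complex I genes, 0 of 11 of complexes II and III, 1 of 16 of complex IV (COX7A2) and 1 of 14 of ATP synthase (ATP5G3). In the same fit it called 1 of 22 citric acid cycle genes, 3 of 22 of fatty acid oxidation, 1 of 68 of the mitochondrial ribosome, 2 of 27 of import, pore and dynamics and 0 of 17 biogenesis regulators. Without repair 4, where it called 4.13% of all genes, these were 18 of complex I, 7 of complexes II and III, 8 of complex IV, 10 of ATP synthase, 7 of the citric acid cycle, 9 of fatty acid oxidation, 17 of the mitochondrial ribosome, 3 of import, pore and dynamics and 1 of the biogenesis regulators.

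All 29 genes tested of respiratory complex I, which oxidises NADH, lay above 0, with a median of 0.58. Of these 11 had an unadjusted p under 0.05, where 5.65% of all genes were higher. NDUFS4, a subunit needed for assembly of that complex, had 96.4, 142, 147, 119 and 151 CPM in gel libraries 1 to 5, against 49.5, 84.7, 92.7, 131 and 54.1 CPM in repair libraries 1 to 5. Only repair 4 reached the gel range. Its difference was 0.67 (SE 0.25), and 0.90 (SE 0.22) without repair 4. Over the list the median without repair 4 was 0.85, with 27 genes under an unadjusted p of 0.05, where 8.09% of all genes were higher. The lowest median on leaving out 1 library was 0.41, without repair 1. For the 11 genes of complexes II and III the median was 0.62, with 11 above 0. It was 0.46 without repair 5 and 0.92 without repair 4. UQCRB, a subunit of the cytochrome bc1 complex, differed by 0.89 (SE 0.32).

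Of 16 genes of complex IV, which reduces oxygen, 13 lay above 0. The median was 0.68, or 0.53 without repair 5 and 0.91 without repair 4. COX7A2 had 9.29, 11.8, 14.2, 14.5 and 16.1 CPM in gel libraries 1 to 5, against 5.33, 6.16, 8.58, 8.61 and 8.24 CPM in repair libraries 1 to 5, with every gel library above every repair library and a difference of 0.84 (SE 0.22). ATP synthase had 14 of 14 genes above 0 and a median of 0.67, or 0.51 without repair 1 and 0.92 without repair 4. ATP5G3, a gene for the rotating c subunit, had 184, 279.5, 269, 345 and 305 CPM in gel libraries 1 to 5, against 90.7, 156, 165, 196 and 100.1 CPM in repair libraries 1 to 5, a difference of 0.96 (SE 0.24), or 1.11 (SE 0.24) without repair 4. Repair 4 was the highest repair library in both, and repair 1 and repair 5 were the lowest for ATP5G3.

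The enzymes that feed the chain lay on the same side. In the citric acid cycle and pyruvate dehydrogenase list 20 of 22 genes lay above 0, with a median of 0.48, or 0.33 without repair 5 and 0.73 without repair 4. MDH1, the malate dehydrogenase of the cytosol, had 229.6, 347, 229, 535 and 351 CPM in gel libraries 1 to 5, against 114, 194, 184, 248 and 101 CPM in repair libraries 1 to 5, a difference of 1.01 (SE 0.28). IDH2, which makes NADPH in mitochondria, differed by 0.78 (SE 0.24). Fatty acid oxidation had 22 of 22 genes above 0 and a median of 0.44, or 0.33 without repair 5 and 0.61 without repair 4. Besides ETFA and ETFB these included CPT1B, the muscle gatekeeper of fatty acid entry into mitochondria (0.94), ACADM, the medium-chain dehydrogenase (0.88), ACADL (0.75) and the fatty acid carrier FABP3 (1.09).

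Proteins of the mitochondrial ribosome, which translates the mitochondrial genome, were smaller in size of difference but as one-sided. Of 68 genes 65 lay above 0, with a median of 0.33, or 0.25 without repair 1 and 0.47 without repair 4. MRPS24 had 32.1, 30.5, 34.5, 26.2 and 23.7 CPM in gel libraries 1 to 5, against 19.4, 16.5, 18.8, 22.6 and 11.9 CPM in repair libraries 1 to 5. The values for MRPS24 show gel 5 just above repair 4. In the import, pore and dynamics list 25 of 27 lay above 0. The median was 0.34, or 0.22 without repair 5 and 0.47 without repair 4. TIMM44, which helps pull proteins into the matrix, was at 0.61 (SE 0.16). Regulators of mitochondrial biogenesis did not share this, with 7 of 17 above 0 and a median of -0.02. PPARGC1A, their best known coactivator, had 13.3, 22.2, 9.24, 44.7 and 16.5 CPM in gel libraries 1 to 5, against 13.4, 14.5, 14.7, 12.1 and 3.68 CPM in repair libraries 1 to 5, a difference of 0.86 (SE 0.43) in which gel 4 was high and repair 5 low. It was 0.39 without gel 4.

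Scores per library, the mean log2 CPM of a list's members relative to the 10 libraries, place repair 4 among the gel libraries for these lists. For complex I the scores were -0.09, 0.37, 0.07, 0.63 and 0.60 in gel libraries 1 to 5, against -0.84, -0.38, -0.05, 0.50 and -0.82 in repair libraries 1 to 5. Repair 4 was within the gel range, gel 1 and gel 3 were the lowest of the gel group, and repair 1 and repair 5 were the lowest of all. No list of the 54 had scores that separated the 5 gel from the 5 repair libraries. Without repair 4, 5 lists had all gel scores above all repair scores: complexes II and III, complex IV, ATP synthase, mitochondrial ribosomal proteins, and import, pore and dynamics genes. Another 3 had all gel scores below: small leucine-rich proteoglycans, TGF-beta signalling genes and fibro-adipogenic progenitor markers.

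**Figure D4:**
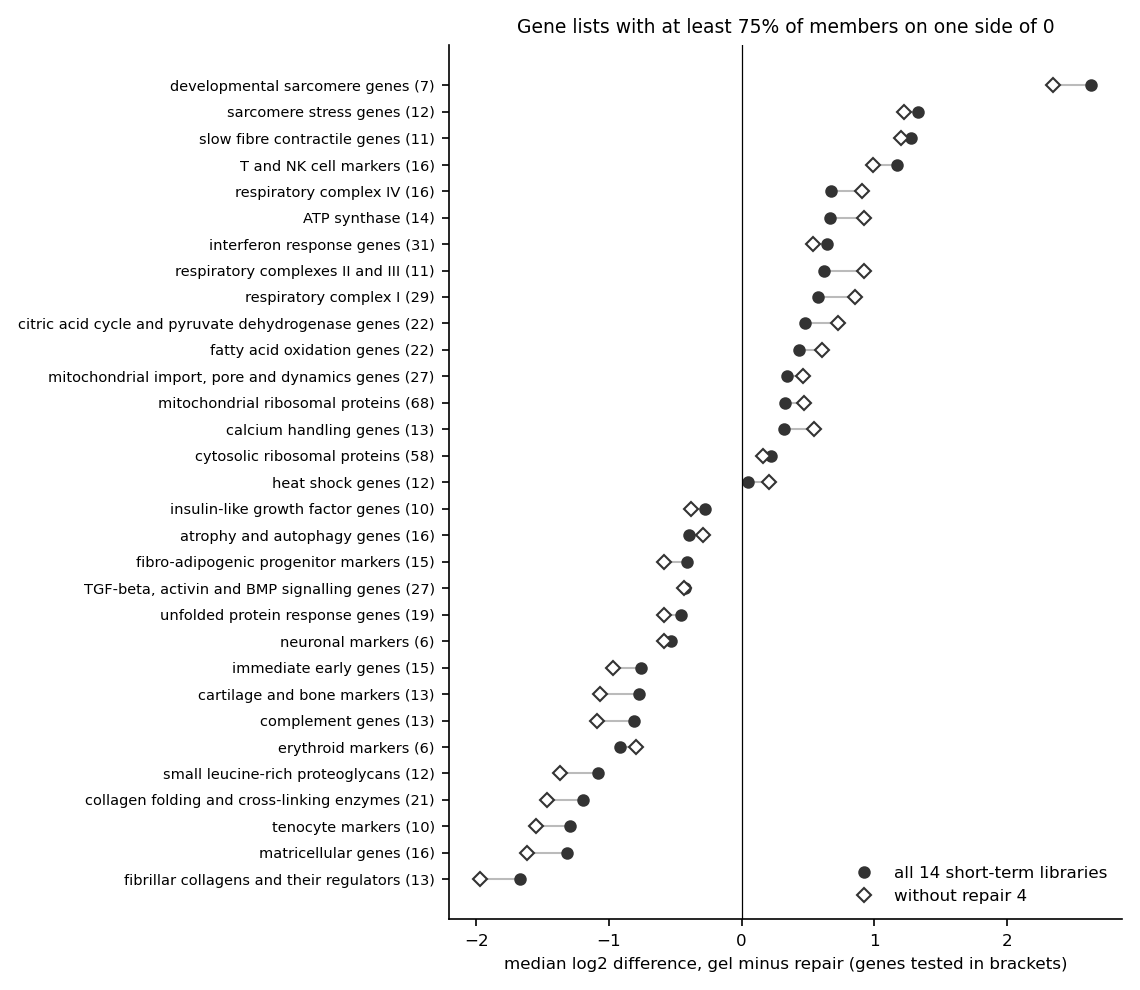
Median log2 difference, gel minus repair, of the 31 lists with at least 75% of tested members on the same side of 0, with all 14 short-term libraries (filled circles) and without repair 4 (open diamonds); the number of genes tested is in brackets. The 16 lists at the top lie above 0 and the 15 at the bottom below it under both, and mitochondrial and matrix lists lie farther from 0 without repair 4.

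The value for glycolysis depended on repair 4. With all libraries 17 of 24 genes lay above 0 and the median was 0.14; without repair 4 it was 0.78. The scores were 0.00, 0.23, -0.53, 0.38 and 0.77 in gel libraries 1 to 5, against -0.92, -0.31, 0.07, 1.02 and -0.70 in repair libraries 1 to 5, so repair 4 was the highest of 10 and repair 1 and repair 5 the lowest. LDHB, the lactate dehydrogenase subunit of oxidative tissue, was the 1 gene with an unadjusted p under 0.05 (log2 difference 1.22). Fast fibre contractile genes showed the same dependence, with a median of -0.05 and 4 of 10 above 0 with all libraries and a median of 0.88 without repair 4. Without repair 5 that median was -0.30.

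Slow fibre contractile genes were higher with the gel in both fits: 11 of 11 lay above 0, with a median of 1.28, and of 1.20 without repair 4. The summed level of the list was 11931 to 32778 CPM in gel libraries and 5285 to 16128 CPM in repair libraries. Repair 4 had the highest sum of the repair group, although its score, -1.69, was the lowest of the 10 libraries. MYOZ2, which ties calcineurin to the Z-disc of slow fibres, had 232, 271, 371, 902 and 393 CPM in gel libraries 1 to 5, against 75.95, 218, 168, 38.02 and 81.6 CPM in repair libraries 1 to 5. All gel libraries were above all repair libraries, gel 4 was far above the rest, and the difference was 1.90 (SE 0.50), or 1.45 without gel 4. The slow troponin TNNI1 had 1254, 1009, 1445, 4837 and 2534 CPM in gel libraries 1 to 5, against 828.8, 1154, 907, 371 and 629 CPM in repair libraries 1 to 5. Its groups overlapped, because repair 2 exceeded gel 2, and its difference of 1.51 (SE 0.48) became 1.00 without gel 4. The list's median was 0.75 without gel 4, the lowest on leaving out any 1 library. MYL2 (1.68), MYL3 (1.56) and the slow calsequestrin CASQ2 (2.02) had an unadjusted p under 0.05 as well.

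Genes that respond to stretch and strain of the sarcomere were higher with the gel in 12 of 12 cases. At an unadjusted p under 0.05 there were 8, where 5.65% of all genes were higher. The median was 1.33, 1.22 without repair 4 and no lower than 0.99 on leaving out any 1 library. edgeR called 0 of the 12 in the 14 libraries and MUSTN1 in the fit of all 34 (0.719% of all genes). DESeq2 called ANKRD2, HSPB7 and LMCD1 (0.939% of all genes), and CSRP3 besides these without repair 4 (4.13%). LMCD1, a LIM protein of the Z-disc region, had 222, 273, 286, 368 and 317 CPM in gel libraries 1 to 5, against 93.6, 217, 125, 92.3 and 62.9 CPM in repair libraries 1 to 5, with gel 1 just above repair 2 and a difference of 1.31 (SE 0.31). HSPB7, a small heat shock protein of heart and skeletal muscle, had 1661, 2904, 1785, 1352 and 950.4 CPM in gel libraries 1 to 5, against 542, 1182, 609, 306 and 269 CPM in repair libraries 1 to 5, and repair 2 lay inside the gel range. It differed by 1.57 (SE 0.44). ANKRD2 (1.75), the muscle LIM protein CSRP3 (1.82), MUSTN1 (1.51) and the lens and muscle chaperone CRYAB (1.05) had an unadjusted p under 0.05 as well, with overlapping groups.

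Developmental sarcomere genes, which mark regenerating fibres, had the largest median of any list, 2.64 with 6 of 7 above 0, but it rested on few libraries. MYH3, embryonic myosin, had 181, 911, 3303, 122 and 116 CPM in gel libraries 1 to 5, against 166, 254, 32.2, 30.8 and 26.8 CPM in repair libraries 1 to 5. Gel 3 and gel 2 were the highest, and gel 1, gel 4 and gel 5 were below repair 2. Its difference of 3.19 (SE 1.09) was 1.71 without gel 3. The list's median was 1.46 without gel 3 and 3.84 without repair 2. Satellite cell and myogenic regulators did not lean to either side beyond a median of 0.19, with 8 of 12 above 0. PAX7, the satellite cell factor, had 4.84, 9.73, 16.6, 3.44 and 2.60 CPM in gel libraries 1 to 5, against 3.82, 5.04, 4.97, 3.03 and 2.82 CPM in repair libraries 1 to 5, again with gel 3 and gel 2 highest, and differed by 0.92 (SE 0.44), or 0.39 without gel 3. MYOG, which drives differentiation, differed by -0.27 (SE 0.30).

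Genes of muscle wasting and autophagy were mostly lower with the gel: 14 of 16 lay below 0, with a median of -0.40, and of -0.29 without repair 4. FOXO1, a transcription factor that turns on wasting genes, had 21.6, 21.5, 28.5, 17.1 and 19.9 CPM in gel libraries 1 to 5, against 28.3, 36.3, 43.7, 23.2 and 29.3 CPM in repair libraries 1 to 5. The groups overlapped and repair 3 was highest. It differed by -0.57 (SE 0.20). The muscle ubiquitin ligase FBXO32 had 416, 145, 128, 369 and 683 CPM in gel libraries 1 to 5, against 749.8, 409, 892, 635 and 554 CPM in repair libraries 1 to 5, a difference of -0.90 (SE 0.49) in which gel 5 exceeded 3 repair libraries. Neuromuscular junction and denervation genes had a median of -0.20 with 11 of 16 below 0, which was 0.00 without repair 2. Cytosolic ribosomal proteins were slightly higher, 54 of 58 above 0 with a median of 0.22. Among proteasome subunits 13 of 29 lay above 0, with a median of -0.05.

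Extracellular matrix genes were lower with the gel in most lists, and the size of the difference rested largely on repair 5. Over 6 matrix lists 87 of 101 genes tested (86.1%, against 54.3% of all genes) lay below 0, with a median of -0.94, and 19 had an unadjusted p under 0.05 on that side (18.8%, against 4.73%). Without repair 4 that number was 48 (47.5%, against 8.42%), the median was -1.23, and 11 genes (10.9%, against 2.99%) had every gel library below every repair library, where 0 did with all libraries. DESeq2 called 0 genes of the 6 lists with all libraries (0.939% of all genes). Without repair 4 (4.13% of all genes) it called 4 of 13 fibrillar collagen genes, 6 of 21 folding and cross-linking enzymes, 5 of 16 matricellular genes, 1 of 23 proteases and inhibitors, 1 of 12 small leucine-rich proteoglycans and 0 of 16 basement membrane genes, and each call was lower with the gel.

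Fibrillar collagens and their regulators had 13 of 13 genes below 0, with a median of -1.67, or -1.97 without repair 4 and -0.52 without repair 5. COL1A1, the main chain of type I collagen, had 2652, 1568, 2752, 672 and 783 CPM in gel libraries 1 to 5, against 6303, 2506, 2793, 84.5 and 31719 CPM in repair libraries 1 to 5. Repair 4 was the lowest of the 10 libraries, repair 5 the highest, and repair 2 lay inside the gel range. Its difference of -2.36 (SE 1.11) was -2.68 (SE 0.92) without repair 4 and -0.79 without repair 5. COL3A1, the collagen of early repair tissue, had 3469, 1846, 3988, 1770.2 and 1801 CPM in gel libraries 1 to 5, against 8666, 3424, 4587, 405 and 31499 CPM in repair libraries 1 to 5 and gave -1.92 (SE 0.86), or -0.73 without repair 5. Periostin, POSTN, a matricellular protein of active fibroblasts, had 140.1, 208, 449.7, 95.3 and 55.5 CPM in gel libraries 1 to 5, against 220.4, 381, 137, 5.45 and 1052 CPM in repair libraries 1 to 5, and its difference of -0.92 (SE 1.20) was 0.03 without repair 5.

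The enzymes that fold and cross-link collagen followed it, with 21 of 21 below 0 and a median of -1.19, which was -1.47 without repair 4 and -0.30 without repair 5. SERPINH1, the collagen chaperone HSP47, had 272, 167, 213, 170.2 and 152 CPM in gel libraries 1 to 5, against 352, 249, 236, 139 and 1695 CPM in repair libraries 1 to 5, and its difference of -1.45 (SE 0.57) was -0.33 without repair 5. For 15 of 16 matricellular genes the fitted value was below 0 (median -1.32, and -0.45 without repair 5). FBLN1, which binds fibronectin and basement membrane, had 22.6, 24.2, 45.8, 21.7 and 19.9 CPM in gel libraries 1 to 5, against 259, 44.7, 71.8, 11.4 and 125 CPM in repair libraries 1 to 5. Repair 1 was high here, and the difference of -1.93 (SE 0.66) was -1.23 without it.

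Small leucine-rich proteoglycans, which coat collagen fibrils, rested less on repair 5. All 12 lay below 0 with a median of -1.08, which was -1.37 without repair 4 and -0.65 without repair 5. Decorin, DCN, had 369, 339, 631, 531 and 632 CPM in gel libraries 1 to 5, against 1356, 802, 939, 499 and 1101 CPM in repair libraries 1 to 5. The 4 repair libraries other than repair 4 were above all gel libraries, and repair 4 lay inside the gel range. The difference was -0.91 (SE 0.38), or -1.07 (SE 0.38) without repair 4. PRELP had 50.8, 42.7, 42.6, 48.8 and 77.4 CPM in gel libraries 1 to 5, against 236, 267, 133, 27.6 and 168 CPM in repair libraries 1 to 5, so that repair 4 was below every gel library and the other 4 repair libraries above them all. It was 1 of the 13 genes called by edgeR without repair 4 and injury 3 (log2 difference -1.93, adjusted p = 0.0297). Basement membrane genes, by contrast, had a median of -0.05 with 9 of 16 below 0, and matrix proteases and their inhibitors one of -0.61, which was -0.01 without repair 5.

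Those 13 genes were 3 higher and 10 lower. The higher ones were PPIF, ATXN7L2 and FAM206A. Among the lower were NOV, a matricellular protein of the CCN family (-1.53, adjusted p = 0.00559), the latent TGF-beta binding protein LTBP1 (-1.27, 0.0493), the fibroblast surface glycoprotein THY1 (-1.26, 0.0493), the guidance ligand SLIT3 (-1.95, 0.0493), the adhesion protein CADM3 (-2.12, 0.0493), DPYSL3, ST1A8, C19H16orf96 and NPC1. NOV had 14.5, 10.7, 10.7, 9.57 and 10.6 CPM in gel libraries 1 to 5, against 35.6, 34.8, 31.4, 1.12 and 28.3 CPM in repair libraries 1 to 5. Repair 4 was below every gel library and the other 4 repair libraries were above them all, and with all libraries its adjusted p was 0.623.

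Receptors and regulators of the TGF-beta family were lower in 22 of 27 cases, with a median of -0.42, or -0.43 without repair 4, and leaving out any 1 library kept it between -0.50 and -0.37. TGFBR1, the type I receptor, had 32.4, 25.1, 31.8, 36.2 and 38.7 CPM in gel libraries 1 to 5, against 40.9, 44.03, 46.4, 50.5 and 46.1 CPM in repair libraries 1 to 5, with no overlap and a difference of -0.47 (SE 0.14). ACVR2A, an activin and myostatin receptor, had 17.99, 19.4, 15.4, 20.1 and 24.5 CPM in gel libraries 1 to 5, against 36.03, 20.8, 23.7, 32.1 and 24.3 CPM in repair libraries 1 to 5, with gel 5 inside the repair range, and differed by -0.49 (SE 0.17). The activin subunit INHBA (-2.57) and the receptor TGFBR2 (-0.86) had an unadjusted p under 0.05, while the ligand TGFB1 differed by 0.23. Insulin-like growth factor genes lay below 0 in 8 of 10 cases (median -0.27), with IGFBP4 at -1.54 (SE 0.78), or -0.68 without repair 1. Notch and Wnt genes had a median of -0.18.

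Markers of connective tissue cells lay on the same side as the matrix genes. The lists are not separate, since COL12A1, for example, belongs to both the fibrillar collagen and the tenocyte list. For fibro-adipogenic progenitor markers 14 of 15 lay below 0, with a median of -0.41, and of -0.58 without repair 4. The scores were -0.24, -0.32, 0.12, -0.17 and -0.23 in gel libraries 1 to 5, against 0.66, 0.46, 0.39, -1.38 and 0.72 in repair libraries 1 to 5, so that the 4 repair libraries other than repair 4 were above all 5 gel libraries. PDGFRA, the receptor that defines these cells, had 30.6, 27.1, 61.3, 47.3 and 42.4 CPM in gel libraries 1 to 5, against 168, 73.2, 58.3, 25.5 and 137 CPM in repair libraries 1 to 5, a difference of -1.15 (SE 0.50) and of -1.39 (SE 0.45) without repair 4. MFAP5, an elastic fibre protein, had 69.1, 89.5, 119, 116 and 125 CPM in gel libraries 1 to 5, against 304, 198, 252, 65.1 and 599.5 CPM in repair libraries 1 to 5 and differed by -1.45 (SE 0.53). The summed level of the list was 1378 to 2144 CPM in gel libraries and 1205 to 3774 CPM in repair libraries, the lowest being repair 4. Tenocyte markers lay below 0 in 10 of 10 cases, with a median of -1.29, -0.98 without repair 5 and a summed level of 295 to 578 CPM in gel libraries and 119 to 4345 CPM in repair libraries. Cartilage and bone markers had 11 of 13 below 0 (median -0.77, and -0.47 without repair 5), and BGLAP, the osteocalcin gene, had 0 counts in all 10 libraries. The part of these cell types in the matrix results was not tested.

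Adipocyte markers, which bear on the fatty change that follows cuff injury, were not separated between the groups. The median was -0.07 with 7 of 11 below 0, and it ranged from -0.44 without gel 5 to 0.31 without repair 2. Adiponectin, ADIPOQ, had 213, 73.5, 104, 209.7 and 305 CPM in gel libraries 1 to 5, against 153, 367, 188, 114.98 and 204 CPM in repair libraries 1 to 5, a difference of -0.18 (SE 0.49) with an edgeR adjusted p of 0.914. High and low libraries occurred in both groups.

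**Figure D5:**
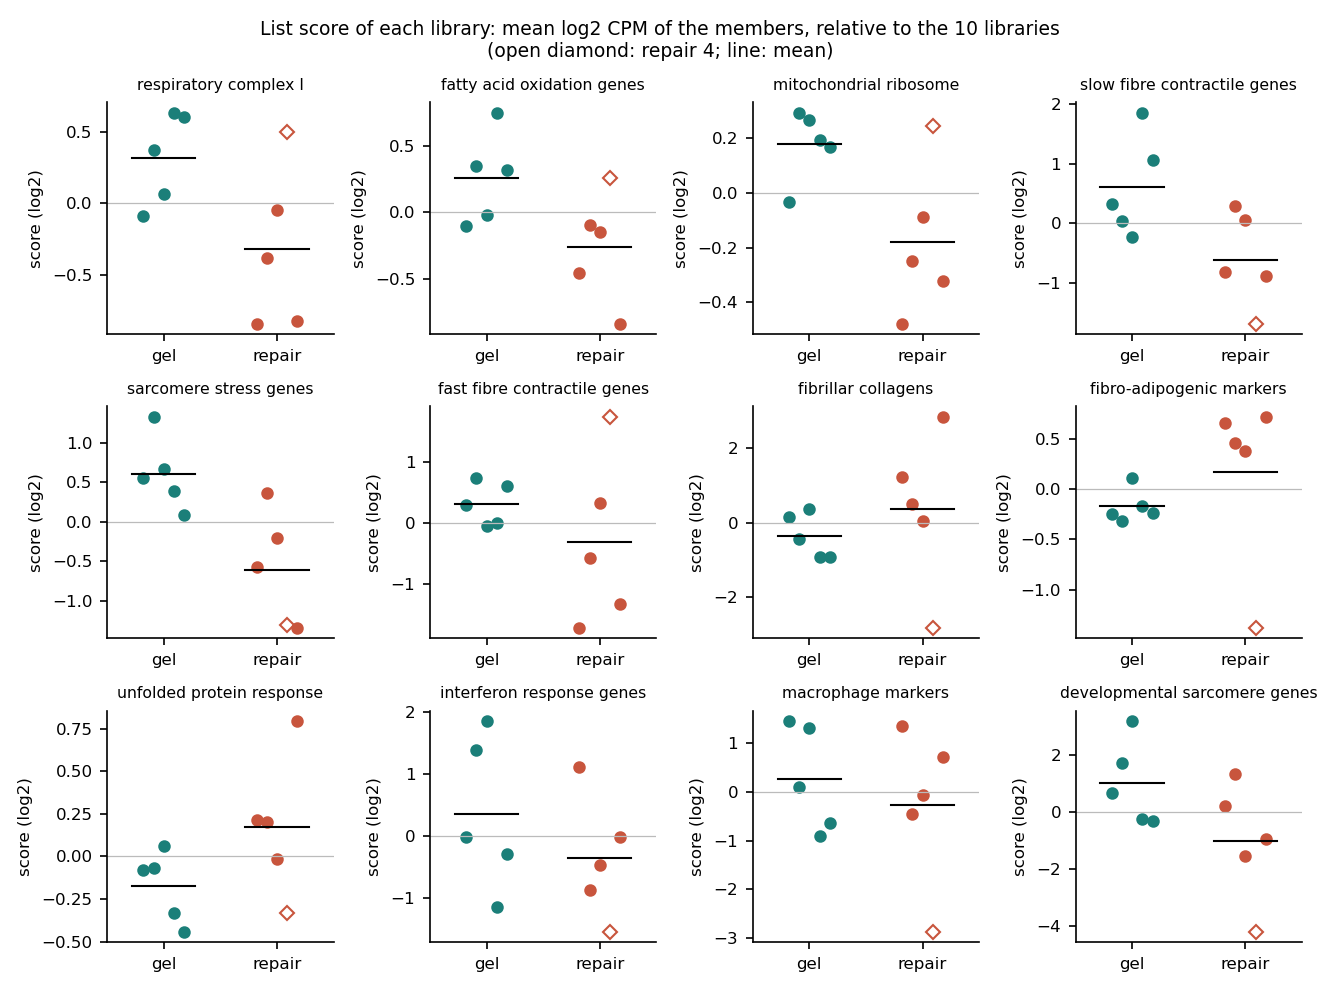
Score of 12 gene lists in each gel and repair library: the mean log2 CPM of the list's tested members, relative to the 10 libraries; each point is a library and each line a group mean. Repair 4, the open diamond, lies within the gel range or above it for complex I, fatty acid oxidation, the mitochondrial ribosome and fast fibre genes, and is the lowest library for collagens, fibro-adipogenic markers, interferon response, macrophage markers, slow fibre and developmental sarcomere genes.

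The unfolded protein response, by which the endoplasmic reticulum adjusts to secretory load, was lower with the gel in 19 of 19 genes tested, with a median of -0.46, which was -0.58 without repair 4 and -0.20 without repair 5. DNAJC3, a co-chaperone that also restrains the kinase PERK, had 14.3, 15.4, 15.2, 14.3 and 12.9 CPM in gel libraries 1 to 5, against 22.9, 21.7, 16.3, 16.96 and 26.6 CPM in repair libraries 1 to 5, with no overlap and a difference of -0.54 (SE 0.14). XBP1 and SEL1L, given above, belong to the same list, as do the chaperone HSPA5 (-0.45) and EIF2AK3, the gene of PERK (-0.89). DESeq2 called 2 of the 19 with all libraries, XBP1 and DNAJC3 (0.939% of all genes), and 4 without repair 4, these and SEL1L and the lectin chaperone CANX (4.13% of all genes), all lower. ATF4 targets had a median of -0.33 that was 0.00 without repair 5. Heat shock genes had 9 of 12 above 0 and a median of 0.05, which was -0.02 without repair 5 and -0.0065 with limma voom (the median log2 difference, heat shock genes).

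Immediate early genes, which respond quickly to many signals, were lower with the gel in 13 of 15 cases, with a median of -0.76, and of -0.97 without repair 4. FOS had 36.1, 26.4, 64.2, 31.5 and 43.3 CPM in gel libraries 1 to 5, against 44.3, 213, 256, 167 and 162 CPM in repair libraries 1 to 5, with repair 1 alone inside the gel range and a difference of -2.07 (SE 0.63). NR4A2, a nuclear receptor, had 5.31, 2.91, 3.62, 5.80 and 12.8 CPM in gel libraries 1 to 5, against 7.73, 12.9, 27.9, 40.2 and 18.96 CPM in repair libraries 1 to 5 and differed by -1.82 (SE 0.52), or -1.47 without repair 4. KLF4 (-0.93), IER2 (-0.76), IER3 (-2.15) and BTG2 (-1.29) had an unadjusted p under 0.05 too.

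Interferon response genes lay above 0 in 30 of 31 cases, with a median of 0.64, or 0.54 without repair 4, yet the scores show 2 libraries behind it. They were -0.02, 1.39, 1.86, -1.15 and -0.29 in gel libraries 1 to 5, against 1.11, -0.87, -0.46, -1.55 and -0.01 in repair libraries 1 to 5. Gel 3 and gel 2 were the highest, repair 1 came next, and gel 4 was the lowest but for repair 4. ISG15, a ubiquitin-like protein induced by interferon, had 9.11, 72.2, 232, 4.32 and 4.95 CPM in gel libraries 1 to 5, against 18.5, 2.59, 3.91, 1.95 and 8.22 CPM in repair libraries 1 to 5, and its difference of 3.19 (SE 1.04) was 1.69 without gel 3. Without gel 3 the list's median was 0.19. T and NK cell markers followed the same libraries, with 15 of 16 tested above 0, a median of 1.17 and 0.31 without gel 3. The kinase ZAP70 had 0.891, 1.26, 4.45, 1.03 and 0.839 CPM in gel libraries 1 to 5, against 0.955, 0.327, 0.279, 0.173 and 0.417 CPM in repair libraries 1 to 5. Of the 25 T and NK markers in the files 9 were too low to test, among them PRF1, NKG7 and KLRB1, and the list summed to 12.7 to 55.8 CPM in gel libraries and 4.89 to 22.9 CPM in repair libraries.

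Macrophage and monocyte markers had 14 of 22 above 0 and a median of 0.48, which was 0.18 without repair 4 and 0.00 without gel 3. Their summed level was 312 to 1228 CPM in gel libraries and 58.4 to 984 CPM in repair libraries, the lowest being repair 4. Members of the list ranged from -1.97 to 1.78, and CSF1R and CD163, given next, were among the 8 below 0. CSF1R, the receptor of the growth factor of these cells, had 56.9, 17.5, 48.2, 11.3 and 14.5 CPM in gel libraries 1 to 5, against 53.9, 21.5, 31.7, 3.33 and 52.8 CPM in repair libraries 1 to 5, a difference of -0.14 (SE 0.71). CD163, a scavenger receptor of resident macrophages, had 9.56, 3.59, 3.68, 2.18 and 1.80 CPM in gel libraries 1 to 5, against 37.1, 2.73, 6.90, 0.519 and 11.97 CPM in repair libraries 1 to 5 and differed by -1.51 (SE 0.89), -0.40 without repair 1. Complement genes lay below 0 in 11 of 13 cases (median -0.81), with C1S at -1.46 (SE 0.59), and the median was -0.15 without repair 1. Cytokine and chemokine genes had a median of -0.30, and IL6, TNF and IL1B were too low to test.

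Erythroid markers, a sign of blood in the sample, lay below 0 in 6 of 6 genes tested (median -0.92). HBB2, a beta-globin gene, had 39.2, 53.4, 86.05, 117 and 32.4 CPM in gel libraries 1 to 5, against 9.19, 70.2, 69.8, 203 and 399 CPM in repair libraries 1 to 5, so that repair 5 and repair 4 were high and repair 1 the lowest of all. Neuronal markers had 5 of 6 below 0 (median -0.53), and CHAT and ISL1 of motor neurons had 0 counts. The remaining cell type lists had medians between -0.22 and 0.13, for keratinocytes, neutrophils and mast cells, endothelium, Schwann cells, pericytes and smooth muscle, and B and plasma cells. Cell cycle genes had a median of -0.09, which ranged from -0.30 without repair 4 to 0.73 without repair 5. Clock, oxidative stress and cholesterol synthesis genes had medians of -0.19, -0.17 and -0.05.

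Whether the gel's difference itself changed between the terms was tested in all 34 libraries, where the 4 groups share no library. Long-term gel and repair libraries held 12707443 to 15019158 counts, fewer than the short-term ones, and the part of depth was not tested. edgeR called 2 of 12935 genes (0.0155%). ATXN7L2 differed between terms by 2.12 (SE 0.31, adjusted p = 0.00138): it was 1.95 higher with the gel in the short term and -0.17 in the long term, where CPM values were 9.74, 8.49, 7.98, 9.47 and 9.38 in gel libraries, against 8.71, 10.1, 13.1, 7.49 and 11.2 in repair libraries. XBP1 differed by -1.88 (SE 0.29, adjusted p = 0.00150), being -0.72 in the short term and 1.16 in the long term, with 110.5, 59.5, 54.1, 68.2 and 54.6 CPM in long-term gel libraries, against 29.0, 31.1, 26.8, 32.7 and 35.1 CPM in long-term repair libraries. Leaving out repair 4 gave 9 such genes and DESeq2 gave 28.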

How the data were processed

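Bulk RNA sequencing was done on rabbit supraspinatus muscle; per the labels' protocols a commercial laboratory extracted the RNA and made the libraries. Deposited by the authors were raw counts of reads per gene, 1 file per library. Per the submitters' processing notes, STAR, edgeR and the build OryCun2.0 were used. Tool versions, counter, annotation and strand setting are not stated in the notes or labels. Overlapping, antisense and near-identical genes are therefore uncertain. Of 18210 entries per file, 26 named as dates in 1 file were dropped, with at most 0.163% of any library's counts. Another 15 entries carrying 7 repeated symbols were added up by symbol, giving 18176 genes. RefSeq names of another rabbit assembly (mOryCun1.1) were found for 2379 of 3500 LOC identifiers, of which 578 gained a symbol; no coordinates or sequences are used.

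The 14 short-term libraries were fitted together in R 4.3.3 with edgeR 4.0.16 (expression filter, TMM, robust quasi-likelihood, 2-sided, Benjamini-Hochberg threshold 0.05), again without repair 4, and in all 34 libraries for the difference between terms. DESeq2 1.42.0, limma 3.58.1 (voom), other scaling, filters, library sets, replicate blocks and each library left out were alternatives. CPM uses TMM library sizes of the 14-library fit; log2 CPM has a prior count of 2. The fits were tested on simulated data. Library measures used exact permutation tests. No pair of libraries within the gel or the repair group was nearly identical: over the 20 pairs, a chi-square test over genes gave at least 117 per degree of freedom, where sampling noise gives about 1.

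The members, 54 gene lists and a gene panel were chosen with earlier results of these data known, so lists have counts and medians and no test. Named genes are the 12 with the smallest p on each side in the 14-library fit (symbol, mean log2 CPM of at least 1), up to 6 more on each side without repair 4, 2 members of each list with at least 75% of 5 or more tested members on the same side of 0, and the panel; other genes named were chosen after their values were seen. Depth was 27589751 to 32043760 counts per short-term gel or repair library and 12707443 to 15019158 per long-term one.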

Additional observations from a re-analysis of the deposited data

Results flagged for a closer look

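Outlying libraries were sought in 322 groups of 5, for the named genes, the list scores and the library measures. The highest or lowest library of a group counted when its gap to the next exceeded Dixon's 95% critical value. Such a library was found in 18 groups, near the rate of about 1 in 20 groups that chance gives. In 7 of the 18 the library was repair 4. It had 13978 genes with a count (group median 14975), a score of -1.38 for fibro-adipogenic progenitor markers (group median 0.46) and a score of -0.91 for basement membrane genes (group median 0.21). On the log2 CPM scale it was the low library for NPC1 (5.38, group median 6.11), SGSM2 (3.99 and 5.17), SEL1L (5.72 and 6.65) and GLOD4 (4.98 and 5.48). SGSM2, SEL1L and GLOD4 were named by the smallest p without repair 4, a choice that favours genes in which repair 4 departs from its group. Their flags are therefore a description.

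Among the other repair libraries, ATXN7L2 was high in repair 2 (4.38 log2 CPM, group median 3.34), TNKS was high in repair 1 (5.97 and 5.63), FOS was low in repair 1 (5.47 and 7.39), TRIM63 was high in repair 3 (8.52 and 7.62) and PPARGC1A was low in repair 5 (1.90 and 3.75). In the gel group gel 3 was high for FBLN1 (5.52 and 4.51) and ZAP70 (2.17 and 0.14) and had the lowest median correlation with its group (0.940 and 0.953). Gel 5 was high for C19H16orf96 (3.06 and 2.44) and low for FKBP14 (1.02 and 1.76), and gel 4 had a high score for cholesterol and lipid synthesis genes (0.46 and -0.10).

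The gel difference itself differed between the short and the long term for ATXN7L2 (2.12, edgeR adjusted p = 0.00138) and XBP1 (-1.88, edgeR adjusted p = 0.00150).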

How the results depend on the processing

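The count of 0 genes called in edgeR held with DESeq2 size factors, with no filter and a stricter filter on low counts, in the 10 gel and repair libraries alone and with a replicate block; it was 127 with DESeq2, 3 with limma voom, 93 with all libraries in one fit and 13 without injury 3 and repair 4 together, and 0 to 2 on leaving out 1 library. Without repair 4 the count of 0 became 559 with DESeq2, 5 with limma voom, 13 without injury 3 as well and 0 to 1 on leaving out 1 more gel or repair library. In the fit of the gel and repair libraries alone, chosen after seeing the data, it was 1, and with a replicate block, also chosen after seeing the data, 0. The count of 2 genes between terms was 28 with DESeq2, 3 with a replicate block within each term, and 2 to 9 on leaving out 1 library. Same-numbered gel and repair libraries had correlations of deviations of -0.288 to 0.389, over 0.1 in 2 of 5 pairs. These values shared no sign, and 5 pairs are too few to tell whether the numbers pair the libraries. Over all named genes and settings 2280 values kept direction and side of the threshold, 72 passed it and 8 reversed: POSTN (0.031 without repair 5, the leave-one-out range being -1.51 to 0.031), CSF1R (-0.51 to 0.12, above 0 without repair 1 or 5 or gel 2, 4 or 5) and ADIPOQ (-0.45 to 0.13, above 0 without repair 2 or gel 2). Of the list medians 1235 were kept, 5 moved by more than the spread between libraries, and 2 reversed, both of the median log2 difference, heat shock genes (-0.0065 with limma voom, -0.022 without repair 5, the leave-one-out range being -0.022 to 0.21); the cause was not tested. Depth and the expression filter limit what is said of low genes such as cytokines.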

Other observations

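Among the 93 genes called in the fit of all 34 libraries, 5 lower with the gel were picked after their values were seen, and the other genes of their pathways were not counted or tested as a list. COPA and ARCN1, subunits of the COPI vesicle coat, differed by -0.66 and -0.61, the cargo receptor TMED2 by -0.51, the vesicle fusion protein SEC22B by -0.74 and STT3A, a catalytic subunit of protein N-glycosylation, by -0.86 (edgeR adjusted p 0.0435 to 0.0479). TMED2 had 143.9, 147, 138, 140.4 and 148 CPM in gel libraries 1 to 5, against 180.1, 175, 175, 188 and 278 CPM in repair libraries 1 to 5, and COPA had 121, 106, 119.5, 109 and 106 CPM in gel libraries, against 191, 142, 131, 130.4 and 273 CPM in repair libraries. For SEC22B and STT3A the groups overlapped. For TMED2 and COPA the gel libraries lay close together and below every repair library, repair 4 included. In the 14-library fit the edgeR adjusted p was 0.413 for TMED2 and 0.408 for COPA.

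DLK1 and CD79B, genes of low level also picked after their values were seen, were wholly above the repair range with the gel and called by DESeq2, but not by edgeR in the 14-library fit (adjusted p = 0.377 for DLK1 and 0.383 for CD79B). The edgeR fit of all 34 libraries called both (adjusted p = 0.0379 for each), and edgeR without repair 4 and injury 3 called neither. DLK1, a paternally expressed regulator of muscle and fat precursors, had 2.55, 3.52, 4.64, 2.00 and 1.04 CPM in gel libraries 1 to 5, against 0.133, 0.927, 0.279, 0.779 and 0.313 CPM in repair libraries 1 to 5 (DESeq2 log2 difference 2.52, adjusted p = 0.00372). CD79B, a chain of the B cell receptor complex, had 1.66, 2.59, 2.19, 2.99 and 0.959 CPM in gel libraries, against 0.488, 0.600, 0.196, 0.173 and 0.104 CPM in repair libraries (DESeq2 log2 difference 2.73, adjusted p = 0.00394).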
